A study of Mus musculus with 18 samples.

Results

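Gene expression was followed from E14.5 to E16.5 (E, embryonic day) in forelimb digit tips of mouse embryos that lack Fzd6. The comparison rests on 6 of the 18 arrays of the series, namely 3 arrays of Fzd6-/- (KO) embryos at E14.5 and 3 at E16.5, chosen by their labels alone. The 6 wild-type (WT) arrays of the same stages served to compare the same step between genotypes, and the 6 arrays of E18.5 (3 KO, 3 WT) to follow the probes further. All 18 arrays entered the fit, so that every standard error and p rests on the spread within all 6 groups. All embryos were of strain C57BL/6 per the labels and came from crosses of Fzd6+/- parents. The KO embryos carried the deletion from conception and in every tissue. The labels give sex as mixed, so the balance of the sexes in each group is unknown. Each array carried Cy3-labelled RNA of digit tips of 1 embryo beside Cy5-labelled RNA of a reference pool of cultured cell lines and 129ES embryonic stem cells, and each value below is log2 of digit tip over reference. A digit tip holds epidermis, nail field, mesenchyme and forming bone, among other tissues. In such bulk tissue fewer cells of a type and less RNA per cell cannot be told apart.

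Fzd6 is a Frizzled, a receptor that binds Wnt ligands at the cell surface. It is known above all for planar cell polarity, the pathway that aligns hairs and cells within the plane of the skin, and for limiting signalling through beta-catenin in some settings. Loss of Fzd6 in mice leaves claws missing or deformed, and loss of the human gene gives thickened, claw-shaped nails. Between the stages compared here, the epidermis over the tip of the mouse digit thickens, folds in to form the nail and starts to keratinise, while the bones beneath are laid down as cartilage.

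The array carries 42006 probes of 60 bases that are named by ID only. No table used here pairs these IDs with genes, so most results are given by probe, with the probe's sequence where a result turns on it. For 260 probes (0.619% of all) the gene was read from an exact match of the sequence to RefSeq's windows around gene starts (build GRCm38.p6). A probe of Fzd6 is not among these. The level of the deleted gene, the markers of nail, epidermis and cartilage, and the other Wnt genes were therefore not analysed here. Of 575 genes in the lists of pathway, keratin, cartilage, cell cycle and other marker genes, only Pax7 and Gsk3a had a placed and tested probe.

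In the KO digit tip, 6632 of 27989 tested probes (23.7%) changed between E14.5 and E16.5 (limma, Benjamini-Hochberg adjusted p under 0.05). Rises and falls were nearly equal in number, 3413 (12.2%) and 3219 (11.5%), but not in size. The median rise was 0.70 on the log2 scale and the median fall -0.49. At least 2-fold rises numbered 1093 (3.91%), and 185 probes (0.661%) fell by that much. Of the rises, 297 were between 4-fold and 16-fold and 46 were larger. Among the falls 11 passed 4-fold and 0 passed 16-fold. The median of all tested probes moved by -0.016, and 47.5% of them were higher at E16.5 by sign alone. For 12208 probes (43.6%) the 3 arrays of a stage lay entirely above or below those of the other stage.

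**Figure D1:**
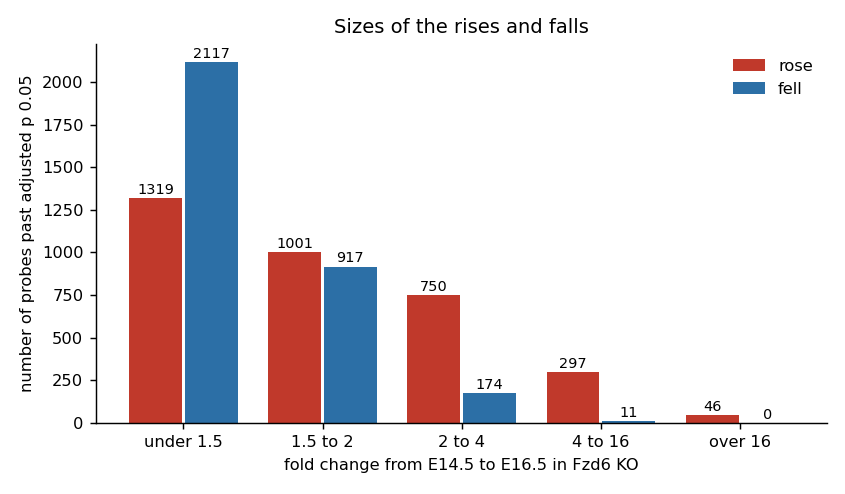
Number of probes (y axis) that rose or fell from E14.5 to E16.5 in Fzd6 KO digit tips with an adjusted p under 0.05, by size of the fold change (x axis). Rises and falls are about as many in total, but 750, 297 and 46 rises stand in the classes above 2-fold against 174, 11 and 0 falls.

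Most of these changes were between levels that were measured at both stages, for the rises about as often as among all tested probes. Of the 3413 probes that rose, 3037 (89%) were well above background on all 6 KO arrays, 172 were above background on no E14.5 array and on all 3 of E16.5, and 195 on some E14.5 arrays and all of E16.5. Among the probes that rose at least 4-fold, 274 of 343 were above background on all 6 arrays and 36 were above background on no E14.5 array and on all of E16.5. The falls seldom ended below background. Above background on all 6 arrays were 3094 of the 3219 (96.1%), and 37 were above it on every E14.5 array and on none of E16.5. Over all 27989 tested probes 88.9% were above background on all 6. Of these 27989, 279 were above it on no E14.5 array and on all of E16.5. A further 1078 were above it on some E14.5 arrays and all of E16.5, and 104 on every E14.5 array and none of E16.5.

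The 7 probes that follow, printed 5′ to 3′, carry the largest rises and falls between levels above background on all 6 KO arrays, and the largest differences between the KO and the WT step. The differences were ranked only among probes above background on every KO and WT array of both stages. Capitals mark AATAAA, the letters of the canonical polyadenylation signal, where they occur.
Z00057834-1: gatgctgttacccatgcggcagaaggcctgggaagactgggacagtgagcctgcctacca
Z00024307-1: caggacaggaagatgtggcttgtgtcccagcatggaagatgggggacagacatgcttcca
Z00047077-1: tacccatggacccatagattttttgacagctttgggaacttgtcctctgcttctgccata
Z00040042-1: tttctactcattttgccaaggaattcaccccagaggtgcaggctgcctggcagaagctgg
Z00022468-1: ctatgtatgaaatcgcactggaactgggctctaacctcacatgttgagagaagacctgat
Z00075199-1: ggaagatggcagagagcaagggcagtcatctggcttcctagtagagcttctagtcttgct
Z00026946-1: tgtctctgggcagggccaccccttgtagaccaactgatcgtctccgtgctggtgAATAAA

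Z00057834-1 rose the most of the probes above background on all 6 KO arrays. Its log2 values were -2.78, -3.20 and -2.61 at KO E14.5 and 2.99, 3.48 and 3.39 at KO E16.5. The stages lay far apart, and the difference of 6.15 ± 0.21 (SE, n = 3 arrays per stage; adjusted p = 4.28e-11, limma) is a rise of 71.1-fold. Z00024307-1 went from -1.77, -1.99 and -1.30 to 3.94, 4.37 and 4.17. It rose by 5.84 ± 0.22, or 57.4-fold (limma, adjusted p = 8.48e-11). Both probes were already higher in WT at E14.5, with means of -0.43 and 0.98 (SD 0.29 and 0.40, n = 3) against -2.86 and -1.69 in KO (SD 0.30 and 0.35). At E16.5 the means were 4.13 and 4.44 in WT and 3.29 and 4.16 in KO, and at E18.5 they were 5.13 and 4.99 in WT and 5.11 and 4.88 in KO. The KO step was therefore the longer, by 1.59 (adjusted p = 0.0115) and 2.38 (adjusted p = 0.00063, limma). For Z00057834-1 that difference was no longer called with quantile-normalized Cy3 alone, with median centring, or without both KO replicates 2.

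The largest falls were less even between embryos. Z00047077-1 stood at 7.80, 8.25 and 7.68 at KO E14.5 and at 4.17, 5.92 and 3.57 at KO E16.5. The stages did not overlap, and replicate 2 was the highest at both. The fall of 3.36 on the log2 scale (SE 0.98, adjusted p = 0.0209, limma), or 10.3-fold, was no longer called without KO E14.5 replicate 1 or 2 or without KO E16.5 replicate 1 or 3, with adjusted p up to 0.0873. Its size is not firm, as the difference ran from -6.17 to -2.15 across the alternative settings. Z00040042-1 fell from 5.20, 5.67 and 5.19 to 1.88, 3.16 and 1.38, again with replicate 2 highest at both stages. Its difference was -3.21 ± 0.65 (adjusted p = 0.002), or 9.26-fold lower, and -1.72 (adjusted p = 0.197) in Agilent's processed signals. The call was also lost in the deposited value table, and the difference ran from -5.75 to -1.72 across the alternative settings. Both fell on to means of 1.70 and 0.20 at KO E18.5. In WT the same step was -2.04 (adjusted p = 0.138) and -2.15 (adjusted p = 0.0213, limma), and no difference between the genotypes' steps was called (adjusted p = 0.822 and 0.771). The WT arrays of the 2 stages did not overlap for either probe, with SDs of 0.29 and 0.14 for Z00047077-1. For Z00040042-1 both SDs were 0.11. The standard errors share the spread of all groups, which was widest at WT E18.5 (SD 2.76 and 1.92).

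**Figure D2:**
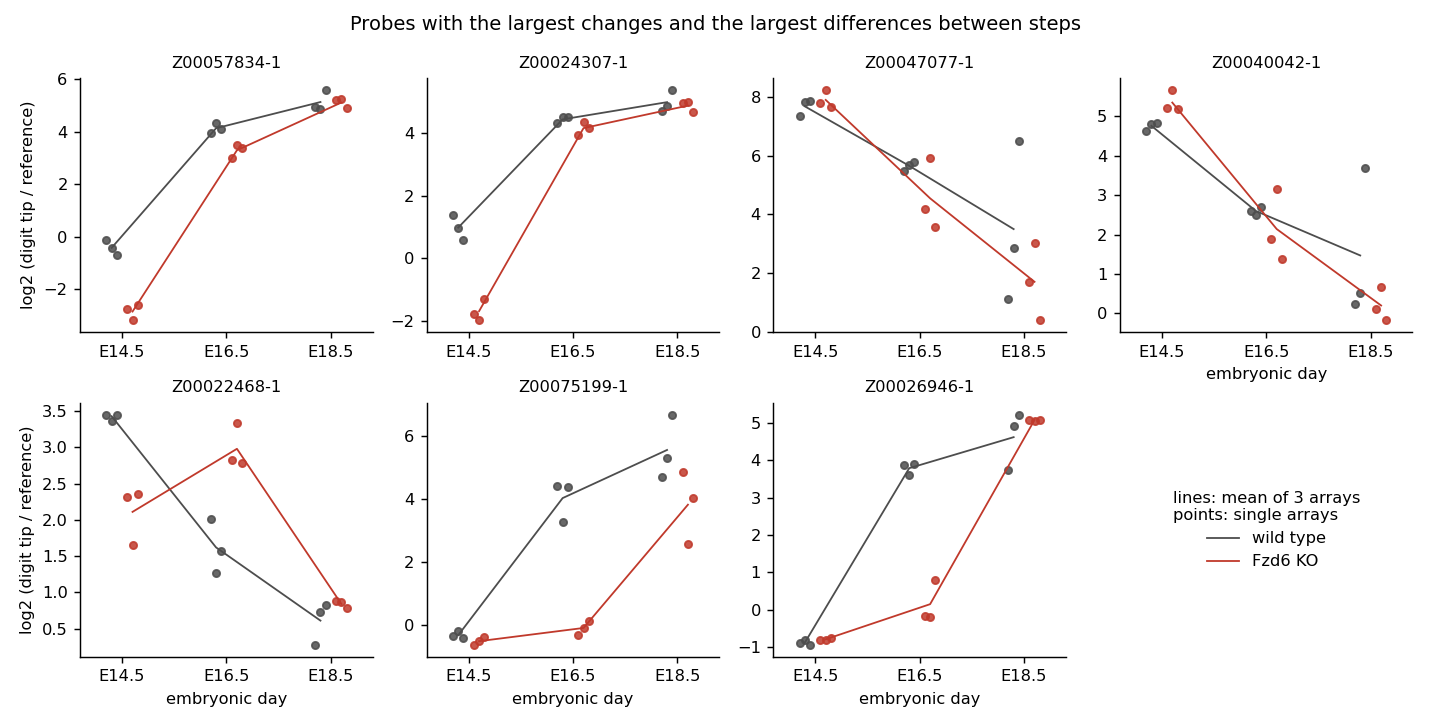
Log2 of digit tip over reference (y axis, own scale in each panel) by embryonic stage (x axis) for 7 probes; points are single arrays, lines join the means of 3 arrays, red is Fzd6 KO and grey is wild type. Z00057834-1 and Z00024307-1 climb by 6.15 and 5.84 in KO between E14.5 and E16.5, whereas Z00075199-1 and Z00026946-1 climb by 4.35 and 4.67 in wild type over that step and by 0.42 and 0.95 in KO.

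The KO step was largely that of the WT digit tip, in which 7932 probes (28.3%) were called, 3562 (12.7%) upward and 4370 (15.6%) downward. The comparisons share no embryo or array, though they share the reference pool, the scan batches and the fit's estimate of spread for each probe. Of the probes that rose in KO, 2234 (65.5%) also rose in WT and 24 fell; these 2234 are 62.7% of the WT rises. Of those that fell in KO, 2262 (70.3%) also fell in WT and 3 rose; they are 51.8% of the WT falls. By sign, 93.3% of the KO rises and 97.6% of the KO falls went the same way in WT, against 76.3% of all tested probes. The larger the KO rise, the more often it was called in WT: 940 of 1093 (86%) at 2-fold and 339 of 343 (98.8%) at 4-fold, with all 343 of the same sign. The median of those 343 was 2.60 in KO and 2.50 in WT. Across all tested probes the 2 steps correlated at r = 0.80, a description across probes, which are not independent.

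For 447 probes (1.6%) the step itself differed between the genotypes (limma, test of the difference between steps). With its sign, the KO step lay above the WT step for 208 (0.743%) and below it for 239 (0.854%). Of the 239, 174 rose in both genotypes by sign, with a median of 0.67 in KO and 2.54 in WT. At E14.5 the medians of KO minus WT over these 174 lay at -0.01, so that the genotypes parted at E16.5, where the median was -1.48. Of the 208, by sign alone, 94 were higher at E16.5 in KO and lower in WT, 82 rose in both and 32 fell in both. Both steps were called for 80 of the 208, the KO step alone for 68 and the WT step alone for 60. In the 82 the genotypes were apart at the start instead, with a median KO minus WT of -1.05 at E14.5 and of -0.05 at E16.5. These medians describe the arrays that chose the probes and carry no test. The number of such probes depended on single arrays: it was 234 without KO E14.5 replicate 2, 254 without KO E16.5 replicate 1, 278 without KO E16.5 replicate 3, and 227, 268 and 259 without WT E14.5 replicates 1, 2 and 3.

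**Figure D3:**
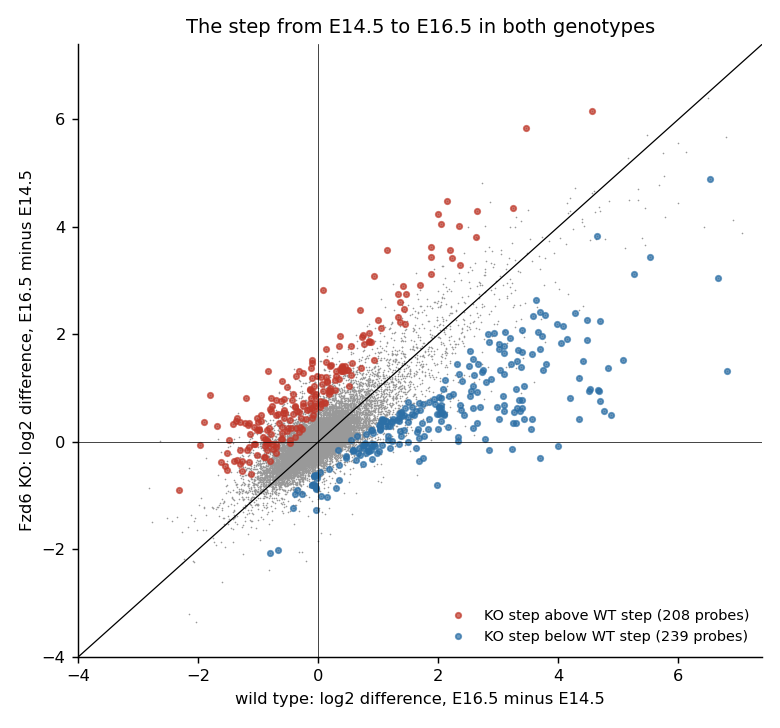
Log2 difference from E14.5 to E16.5 of each of the 27989 tested probes in wild type (x axis) and in Fzd6 KO (y axis), with the line of equal steps. The 208 probes with a KO step above the WT step (red) and the 239 with one below it (blue) lie away from the line, and most of the blue ones lie to the right of 0, where wild type rose.

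The E18.5 levels did not enter the difference between steps that chose these sets, although the E18.5 arrays took part in the probe filter and in the estimate of spread. Between KO and WT at E18.5, 2477 of all tested probes (8.85%) differed, 1595 (5.7%) higher and 882 (3.15%) lower in KO. Of the 239 probes with a KO step below the WT step, 52 differed at E18.5 (21.8%), 33 of them higher and 19 lower in KO. The median of KO minus WT over the 239 was -1.30 at E16.5 and 0.08 at E18.5. Of the 208 with a KO step above the WT step, 37 differed at E18.5 (17.8%), 21 higher and 16 lower. Their median was 0.31 at E16.5 and -0.01 at E18.5. The WT E18.5 arrays correlated at 0.919 to 0.953, the lowest of the 6 groups. In an unplanned setting replicate 1 of that group was left out, the only E18.5 array so treated. Without it, 43 of the 239 and 28 of the 208 were called. Over all probes that setting called 7.63%, with 1049 higher and 1086 lower in KO, so the excess of higher calls was not present without that array.

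Single probes show these patterns plainly. Z00022468-1 was 2.32, 1.66 and 2.36 at KO E14.5 and 2.82, 3.33 and 2.78 at KO E16.5, a rise of 0.87 ± 0.21 (adjusted p = 0.00735, limma) with no overlap of the arrays. That rise was 0.73 with median centring (adjusted p = 0.224) and 0.46 without both KO replicates 2 (adjusted p = 0.159), so the KO direction is less firm than the difference between steps. In WT it fell from a mean of 3.43 (SD 0.05, n = 3) to 1.62 (SD 0.37), by 1.81 (adjusted p = 1.09e-05). The steps differed by 2.68 ± 0.30 (adjusted p = 0.000214), and at E18.5 the means were 0.84 in KO and 0.61 in WT.

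Z00026946-1, which ends in the polyadenylation letters, stood at -0.82, -0.81 and -0.75 at KO E14.5 and at -0.16, -0.19 and 0.81 at KO E16.5. Replicate 3 was the highest at E16.5, and the rise of 0.95 ± 0.30 (adjusted p = 0.0294) was lost without it, without any of the KO E14.5 replicates, with median centring and in the first scan batch alone. WT rose from -0.88 (SD 0.07, n = 3) to 3.79 (SD 0.16) over that step, and the KO minus WT step was -3.72 ± 0.42 (adjusted p = 0.000223, limma). At KO E18.5 the value was 5.08 (SD 0.02), against 4.62 (SD 0.79) in WT. Z00075199-1 was -0.64, -0.52 and -0.38 at KO E14.5 and -0.31, -0.09 and 0.14 at KO E16.5. The arrays did not overlap, and the difference of 0.42 ± 0.50 was not called (adjusted p = 0.612, limma). The SDs at the KO stages were 0.13 and 0.22, smaller than in WT E16.5 or at E18.5, whose spread the standard error shares. Fitted on the 6 KO arrays alone, the same difference was called (adjusted p = 0.0434). WT moved from -0.32 (SD 0.11) to 4.04 (SD 0.65), and the KO minus WT step was -3.93 ± 0.71 (adjusted p = 0.00922). In the first scan batch alone that difference was -3.76 (adjusted p = 0.164), and without both KO replicates 2 it had an adjusted p of 0.0598. The KO mean reached 3.83 (SD 1.15) at E18.5. The probe shares 40 and 26 bases with Z00023905-1 and Z00057869-1, whose KO steps were both 0.42.

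Of the 260 probes placed in a gene, 138 (135 genes) were tested and 22 (15.9%) changed in KO, 12 upward and 10 downward. The share for all tested probes was 23.7%, and the placed probes are chosen by nearness to a gene start of RefSeq, not at random. The table used gives a gene's bounds but not its exons, so whether a matched stretch lies in an exon is unknown. Some stretches lie far from both ends of the gene. That of Homer2 is 9395 bases from the end and 97001 from the start, and that of Crxos 7857 and 13510. For no placed gene was a difference between the KO and the WT step called. The lowest adjusted p was 0.0685, for Homer2. Of the 20 called genes that the naming rule gave, the KO call was kept with median centring in place of loess for Il17rc, Tor1aip2, 4930523C07Rik and Rpl38 and lost for the other 16, and 14 were lost in the first scan batch alone and 7 in Agilent's processed signals.

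Among receptors and membrane proteins, Il17rc, a subunit of the receptor for interleukin-17A and interleukin-17F, rose the most. The probe lies at chr6:113483106-113483138 on the plus strand, with 33 of its bases matched, and ends 25 bases before the end of the gene. Its values were -2.20, -2.21 and -2.15 at KO E14.5 and 0.31, 0.70 and 0.53 at KO E16.5, well apart. The rise of 2.70 ± 0.13 (6.49-fold, adjusted p = 1.37e-09, limma) was 2.4 in WT (adjusted p = 3.14e-09), and the KO mean at E18.5 was 1.38. Tor1aip2, a membrane protein of the endoplasmic reticulum that binds torsin ATPases, had a probe at chr1:156035836-156035895 (plus strand), 172 bases inside the gene. It went from 0.00, -0.12 and -0.10 to 1.54, 1.80 and 1.61, a rise of 1.72 ± 0.20 (3.30-fold, adjusted p = 1.27e-05), against 2.25 in WT. The long noncoding RNA gene 4930523C07Rik, with a probe at chr1:160077979-160078038 (plus strand), rose from -0.25, -0.29 and -0.10 to 0.56, 0.78 and 0.69, or by 0.89 ± 0.16 (adjusted p = 0.000975). Fam180a, on chromosome 6, was outside the rule for naming genes because 1 of its 3 KO E14.5 arrays was above background, and is named after its value was seen. Its values were -2.50, -2.18 and -1.89 at KO E14.5 and 0.26, -0.05 and -0.02 at KO E16.5. The fitted difference of 2.25 (limma, adjusted p = 1.34e-05) is set against a level that only 1 array measured above background, and it ranged from 1.85 with Cy3 alone to 4.74 in Agilent's processed signals.

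Plet1, a surface antigen of epithelial progenitors in skin (chr9:50505002-50505055, plus strand, 54 bases matched), was also outside the rule and is named after its values were seen. It was -1.34, 1.36 and -2.08 at KO E14.5 and 0.24, 0.65 and 0.73 at KO E16.5. Replicate 2 at E14.5 lay above all 3 arrays of E16.5, the stages overlapped, and the KO difference of 1.23 ± 0.57 was not called (adjusted p = 0.136, limma). In WT Plet1 rose by 4.34 (adjusted p = 3.38e-05), from a mean of -1.69 (SD 0.38, n = 3) to 2.65 (SD 0.28), and the KO minus WT step of -3.11 had an adjusted p of 0.0691. Without KO E14.5 replicate 2 the KO rise was 2.25 (adjusted p = 1.98e-05) and the KO minus WT step -2.09 (adjusted p = 0.00798), and without KO E14.5 replicate 3 they were 0.53 (adjusted p = 0.538) and -3.81 (adjusted p = 0.0127, limma).

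The other placed genes that rose include genes of translation and metabolism. Cytosolic ribosomal proteins and their relatives had 5 probes of 4 genes, a grouping made after their values were seen, and nothing is read from its counts. Of these 2 rose and none fell, where 12.2% and 11.5% of all tested probes did, and the differences ran from 0.28 to 1.1. The mitochondrial ribosomal protein gene Mrps21, not in the group, gave -0.04 (adjusted p = 0.856, limma). Rpl10a, of the large ribosomal subunit (chr17:28328570-28328614, plus strand, 45 bases matched), was 0.33, 0.63 and -0.93 at KO E14.5 and 0.71, 1.57 and 1.06 at KO E16.5, and its rise of 1.1 ± 0.32 (adjusted p = 0.0196) was lost without KO E14.5 replicate 3, the low array, and without KO E16.5 replicate 2, the high one. Rpl38, of the same subunit (chr11:114668538-114668597, plus strand), rose by 0.81 ± 0.21 (adjusted p = 0.0121), a call lost without the same arrays. A second Rpl38 probe that shares 48 bases with it gave 0.28 ± 0.26 (adjusted p = 0.499, limma). In WT the 2 probes gave 0.47 and 0.5, and the gap between them in KO was not tested. Fau, whose product is cut into a ribosomal protein, gave 0.48 (adjusted p = 0.102) and Rps27l 0.35 (adjusted p = 0.367). In WT none of the 5 was called. Ribosomal protein genes have many processed copies in the genome, so that these levels may hold signal from more than 1 locus.

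Nme2, a nucleoside diphosphate kinase (chr11:93955844-93955903, minus strand), rose from -0.79, -0.43 and -1.20 to -0.30, 0.13 and -0.16, or by 0.69 ± 0.17 (adjusted p = 0.00749, limma). Abhd6, a monoacylglycerol hydrolase (chr14:8055589-8055648, plus strand), rose by 0.51 ± 0.15 (adjusted p = 0.024) in KO and 1.02 in WT, and the KO call was lost without KO E14.5 replicate 1 or 3 or KO E16.5 replicate 2 or 3. Renbp, an epimerase of the N-acetylglucosamine pathway (chrX:73922122-73922181, minus strand, 1 base from the end of the gene), rose by 0.31 ± 0.09 (adjusted p = 0.0234), a call lost without KO E14.5 replicate 1 or 2 or KO E16.5 replicate 1 or 3. Rnf224, a RING finger gene (chr2:25236738-25236781, minus strand, 44 bases matched), stood at 0.39 ± 0.14 (adjusted p = 0.0478), and at an adjusted p of 0.0624 with the replicate number as a block; it was also lost without any of the KO E14.5 replicates and without KO E16.5 replicate 2. Crxos, a homeobox gene beside Crx (chr7:15896127-15896173, plus strand, 47 bases matched), rose by 0.71 ± 0.14 (adjusted p = 0.0019), and the predicted gene Gm36449 (chr7:120842688-120842747, minus strand) by 0.82 ± 0.24 (adjusted p = 0.0189), a call lost without KO E14.5 replicate 1 or KO E16.5 replicate 2.

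**Figure D4:**
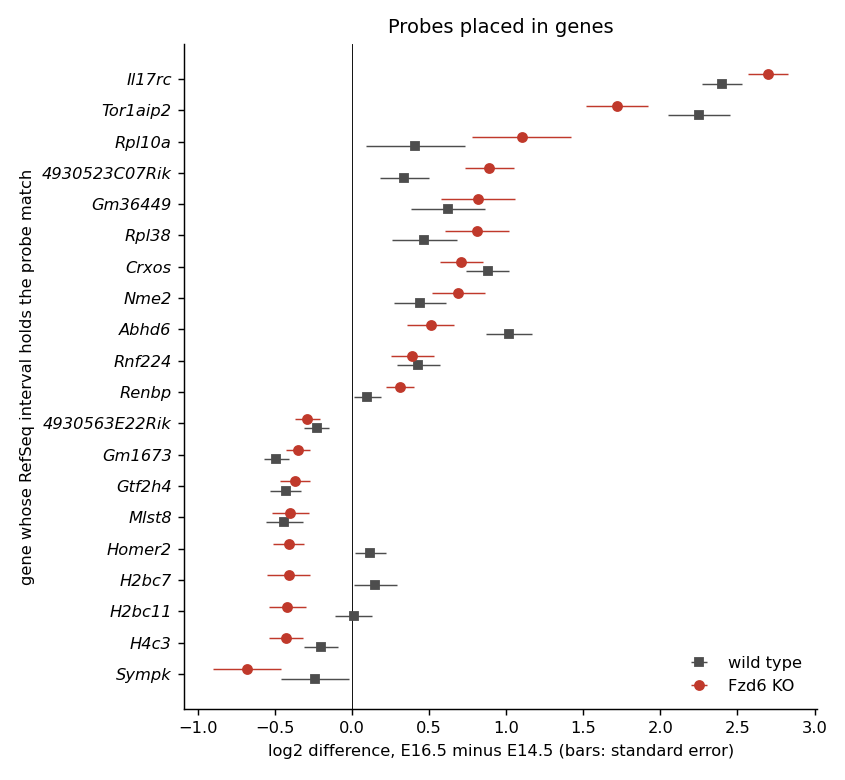
Log2 difference from E14.5 to E16.5 (x axis) of 20 probes placed in genes and called in Fzd6 KO, with red circles for KO and grey squares for wild type; bars are standard errors of the fit over 3 arrays per group. Il17rc and Tor1aip2 rose by 2.70 and 1.72 in KO, and every fall shown is smaller than 1 on this scale.

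The placed genes that fell include 3 of mRNA processing, transcription and growth control, and 3 histones, and each fell by less than 2-fold. Symplekin (Sympk), a scaffold of the machinery that cleaves and polyadenylates mRNA, had probes at chr7:19054553-19054612 and chr7:19054462-19054521 (plus strand), near the end of the gene. The first went from 0.46, 0.16 and 0.13 to -0.15, -0.63 and -0.49, a difference of -0.68 ± 0.22 (adjusted p = 0.0328, limma), and the second gave -0.64 ± 0.20 (adjusted p = 0.0326). The first call was lost without any of the KO E14.5 replicates and without KO E16.5 replicate 2 or 3. Gtf2h4, a subunit of the general transcription factor TFIIH (chr17:35667753-35667812, minus strand), gave -0.37 ± 0.10 (adjusted p = 0.0106), and was lost without KO E14.5 replicate 3 or KO E16.5 replicate 2. Mlst8, a shared subunit of both mTOR kinase complexes (chr17:24473634-24473677, minus strand, 44 bases matched), gave -0.40 ± 0.12 (adjusted p = 0.0258), and was lost without any of the KO E14.5 replicates and without KO E16.5 replicate 2.

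Core histones, which package DNA and whose replication-dependent genes are transcribed in S phase, had 8 placed probes, a grouping also made after the values were seen and from which nothing is read. In KO 3 of the 8 fell and none rose, where 11.5% and 12.2% of all tested probes did, with a median of -0.18 and a range from -0.43 to 0.06. The 8 include the variants H3f3a (-0.28) and H2ab2 (0.03), so they are not a group of S-phase genes alone. H2ab2 was above background on only 1 of 3 arrays at each KO stage. In WT none of the 8 fell and H2ac18 rose by 0.41 (adjusted p = 0.0137, limma), and the difference between steps was called for none of the 3 that fell in KO. The matched stretches of H4c3 and H2bc7, shown over 30 bases because histone copies are nearly alike in coding sequence, were as follows, in lower case throughout as no base is singled out.
H4c3: tctggacgtggtaagggtggtaaaggcctt
H2bc7: ctaagtccgctcccgccccgaagaagggct
The H4c3 stretch lies at chr13:23698409-23698446 (minus strand, 38 bases matched). Its values were 0.16, 0.34 and 0.37 at KO E14.5 and -0.04, -0.11 and -0.28 at KO E16.5, without overlap, a difference of -0.43 ± 0.11 (adjusted p = 0.0107). H2bc11 (chr13:22043200-22043247, plus strand) gave -0.42 ± 0.12 (adjusted p = 0.0174) and H2bc7 (chr13:23574131-23574177, minus strand) -0.41 ± 0.14 (adjusted p = 0.0381). H4c3 was lost without KO E16.5 replicate 3, H2bc11 without KO E14.5 replicate 2 or KO E16.5 replicate 1 or 3, and H2bc7 without those arrays or KO E14.5 replicate 3. Since a probe of a histone gene can bind transcripts of its near-identical copies, the gene behind each value is uncertain.

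Homer2, a scaffold protein that links receptors to calcium stores (chr7:81609876-81609924, minus strand, 49 bases matched), was 2.39, 2.24 and 2.38 at KO E14.5 and 1.94, 1.80 and 2.04 at KO E16.5. It fell by 0.41 (SE 0.10, adjusted p = 0.0058, limma), a call lost with median centring (-0.53, adjusted p = 0.444) and in the signals Agilent's software had processed (-0.34, adjusted p = 0.153), and stood at 2.60 at KO E18.5, above both earlier stages. In WT it was 2.22, 2.34 and 2.33 on average at the 3 stages. Gm1673 (chr5:33983515-33983574, plus strand) fell by 0.35 (adjusted p = 0.00326), a step of -0.49 in WT, and 4930563E22Rik (chr11:72215719-72215778, plus strand) by 0.29 (adjusted p = 0.0114), a call lost without KO E14.5 replicate 1 or KO E16.5 replicate 2. Rnf141, a RING finger gene with a probe at chr7:110844351-110844410 (minus strand), was above background on all 3 KO E14.5 arrays and on none at E16.5, with a fitted difference of -0.20 (adjusted p = 0.0628, limma) that was not called.

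Of the listed genes with a placed probe, Gsk3a, a kinase of the complex that marks beta-catenin for destruction, was 0.12, 0.04 and 0.16 at KO E14.5 and -0.06, -0.21 and -0.07 at KO E16.5. Its arrays did not overlap, and the difference of -0.22 ± 0.08 had an adjusted p of 0.0574 and, with the replicate number as a block, of 0.0332 (limma). Pax7, a transcription factor of muscle and neural crest precursors, gave -0.06 ± 0.09 (adjusted p = 0.691), and its values of -0.34 to -0.13 at E14.5 and -0.32 to -0.25 at E16.5 overlapped. All 3 probes of NADH dehydrogenase subunits (Ndufa9, Ndufb11 and Ndufa11), grouped after their values were seen, lay between -0.03 and 0.11 and were not called.

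Probes that share sequence gave a check between probes, not of errors of RNA or array, which both probes of a pair share. Among 645 pairs of tested probes that overlap by at least 20 bases, 184 pairs had both probes called, all with the same sign. The steps of the pairs differed by a median of 0.04 on the log2 scale, and 642 of the 645 lay within 1.5-fold of each other. In 34 pairs only 1 of the probes was called, and in 427 neither was. Of the 27989 tested probes 24382 moved by under 1.5-fold, so unrelated probes would often lie close as well. Pairs without shared sequence were not compared.

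Base composition differed between the directions. The probes that fell had a median of 41.7% G and C, and those that rose and all tested probes had 45%. Of the 4534 probes with at most 35% G and C, 748 fell, and the share dropped from class to class, through 13.9% of those above 35% and up to 40%, to 5.32% of those above 55%. The share that rose stayed between 8.93% and 13.8% with no such order. The WT step showed the same slope for falls, from 21.7% to 5.63%, and the part of base composition in these counts was not tested. AATAAA, searched on the probe's own strand, occurred in 9.55% of the probes that rose, 9.16% of those that fell and 7.16% of those not called. Called probes were also brighter, with a median Cy3 log2 signal of 9.91 for rises and 9.85 for falls against 8.37 for the rest.

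**Figure D5:**
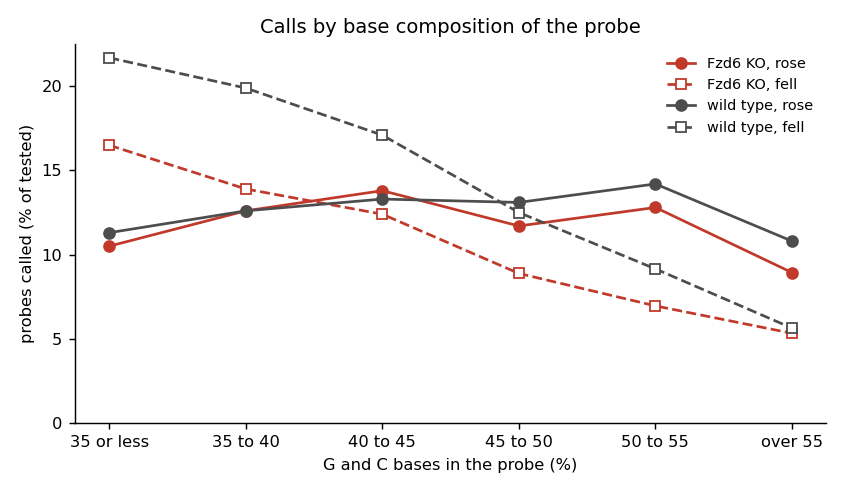
Share of tested probes that rose (filled points, solid lines) or fell (open squares, dashed lines) from E14.5 to E16.5 (y axis, % of tested probes in the class) by G and C content of the probe (x axis, %), in Fzd6 KO (red) and wild type (grey). The share that fell drops from 748 of 4534 probes to 5.32% in KO and from 21.7% to 5.63% in wild type, while the share that rose stays between 8.93% and 14.2%.

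Most probes went on in the same direction after E16.5. Of the KO rises, 69.7% were higher still at KO E18.5, 27% lay between E14.5 and E16.5 and 3.22% were back past the E14.5 mean. Of the falls, 79.9% were lower still, 18.4% lay between and 1.68% were back past the start. For changes of at least 2-fold, 76.7% of the rises and 83.8% of the falls went on. These shares use the E16.5 arrays on both sides and are a description without a test.

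Each array had 62.8% to 69.2% of its probes above background in Cy3 and no saturated spot. Arrays of a stage correlated at 0.959 to 0.975 at KO E14.5 and 0.964 to 0.985 at KO E16.5, above the 0.842 to 0.893 between stages. KO E14.5 replicate 2 stood apart the most, where 134 probes exceeded both others of its group by 2-fold or more, and KO E16.5 replicate 2 had 57. Without both of them 3549 probes were called, 2121 up and 1428 down. The arrays were on 5 slides, none of which held both stages of KO, so slide and stage cannot be told apart by a fixed term. Both stages were present in each of the 2 scan batches. In the first batch alone 3728 probes were called, 97.2% of which went the same way in the single pair of arrays of the second, against 74.1% of all probes. With 3 arrays in a group, the precision of each value is limited by that number.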

How the data were processed

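Members, gene lists and tests were chosen with earlier results of these data known. Per the file headers, the deposited scanner files are output of Agilent Feature Extraction 9.5.1.1 and hold mean and local background intensity per channel and a deposited log10 ratio of Cy5 over Cy3. Cy3 was the digit tip on every array, so a dye effect cancels only in differences. The deposited value table (25030 probes) tracked log10 of Cy3 over Cy5 (r from 0.991 to 1.000 with probes centred), with column medians of 2.44 to 2.48. A constant per probe of unknown origin had been added, and the table served as an alternative.

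The deposited intensities were corrected with normexp (offset 50) and loess in limma 3.58.1 (R 4.3.3). Control spots (1417 of 43451) and outlier spots were left out, and spots of a probe averaged, giving log2 of Cy3 over Cy5. Fold changes of dim probes are understated by the offset. Probes above background on all 3 arrays of a group, with 2 values in every group, were tested in 1 fit of 6 group means over 18 arrays (12 residual degrees of freedom, two-sided), and the code was tested on simulated data. Labels do not name separate litters.

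Probes were placed by exact match of 60 bases, or at least 30 at a window's edge, to RefSeq windows of 250 bases before to 50 after gene starts (GRCm38.p6), at 1 place and in 1 gene on the probe's strand. Of 431 probes matched, 417 lay at 1 place. Named genes are up to 12 rises and 12 falls of largest size, called, above background on all 6 KO arrays and without overlap, the genes that crossed background, and listed genes. Probes are named by ID for the 2 largest rises, falls and step differences in each direction. The step differences were taken among called probes above background on every KO and WT array of both stages.

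Same-numbered KO arrays deviated from their group means with r = 0.23, 0.35 and 0.18, and differently numbered ones with r from -0.34 to 0.17. Same-numbered arrays of other pairs of groups gave r from -0.22 to 0.51. This check does not settle whether the numbers pair the samples, and the labels name no shared animals. The reported fit therefore holds no pairing, and the replicate number as a block is an alternative. Replicate 3 of each group is also the second scan batch.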

Additional observations from a re-analysis of the deposited data

Results flagged for a closer look

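These results differed between the genotypes by a test of the difference between the KO and the WT step (limma, adjusted p under 0.05). The KO step was above the WT step for 208 probes and below it for 239. Among the probes named above, the KO minus WT step was 1.59 for Z00057834-1, 2.38 for Z00024307-1, 2.68 for Z00022468-1, -3.93 for Z00075199-1 and -3.72 for Z00026946-1. What lies behind these differences was not tested. In WT each slide used, 1 and 4, carried both stages, so the WT step was taken within slides. The KO step was taken between slides, from slides 2 and 4 at the earlier stage to slides 3 and 5 at the later. A difference between the steps therefore cannot be told apart from a difference between slides.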

How the results depend on the processing

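The 6632 changes of the KO step became 1466 with median centring in place of loess, 10299 with array weights, 3728 in the first scan batch alone and 3549 without both KO replicates 2, the last chosen after seeing the data. Leaving out 1 KO array gave 4897 to 5637. At least 2-fold rises outnumbered such falls in every one of these, from 760 against 140 with median centring to 2005 against 470 in Agilent's processed signals, and with the smallest ratio in the value table, 1295 against 542. The share of calls that were rises was 51.5% as reported, 62.3% in Agilent's processed signals, 70.9% with median centring and 39.6% with Cy3 alone.

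The 447 differences between steps became 53 with median centring, 1210 without background subtraction, 1197 with Cy3 alone, 826 with only the arrays compared, 1195 with array weights, 142 in the first scan batch alone and 183 without both KO replicates 2. Leaving out 1 array gave 227 to 456. In Agilent's processed signals, where the median of all probes moved by 0.18, 65.4% of the differences were upward, and 31.7% in the first scan batch, against 46.5% as reported.

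With the replicate number as a block, 6423 changes (3314 up, 3109 down) and 404 differences were called. Among the probes and genes named the block changed the call of Rnf224 and Gsk3a and no other. The remaining alternatives (value table, filters, slide as a random block, scan batch as a term) gave counts within 1.5 times those reported.

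Of 38 results on named probes and genes, 9 were called alike in all their alternatives: the KO steps of Z00057834-1, Z00024307-1, Il17rc, Tor1aip2, 4930523C07Rik and Fam180a, and the step differences of Z00024307-1, Z00022468-1 and Z00026946-1. Over 780 alternatives 122 lost a call and 18 gained one, 9 of these for Plet1. Only Pax7, not called, changed sign, to 0.12 with Cy3 alone and 0.00 in the first scan batch.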
